A study of Mus musculus with 8 samples.

Results

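Fatty acid binding proteins (FABPs) and long-chain acyl-CoA synthetases (ACSLs) handle fatty acids once these are inside a cell. In mouse macrophages with and without acetylated LDL (Ac-LDL), 7 of their genes were examined: Fabp3, Fabp4, Fabp5, Acsl1, Acsl3, Acsl4 and Acsl5. Every probe of the array whose gene symbol was one of these 7 was taken, without regard to its values. This gave 16 of the 45281 probes, and 10 of the 16, for 6 of the 7 genes, were detected well enough to be tested. The samples were peritoneal macrophages elicited with thioglycollate in C57/BL6 mice aged 8 weeks. By the study's methods such cells came from adult male mice, were freed of non-adherent cells and were kept as an adherent layer in medium conditioned by L-929 cells, and no sort for macrophages is described. The 4 Ac-LDL samples had received acetylated LDL, a chemically modified lipoprotein that macrophages take up in bulk, at 120 µg/ml for 24 h, and the 4 control samples were mock treated. Each group is numbered as replicates 1 to 4, and replicates 1 and 2 of both groups lay on one slide while replicates 3 and 4 lay on another. No label says how many animals gave the cells of a replicate, and p-values measure the spread between these samples. The comparison asks which transcripts differ between macrophages given Ac-LDL and mock-treated ones. Ac-LDL brings fatty acids as well as cholesterol, and their parts cannot be told apart here.

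As background, fatty acids dissolve poorly in the cytosol, where FABPs carry them between membranes, enzymes and the nucleus. ACSLs join a long-chain fatty acid to coenzyme A, which traps it in the cell and readies it for triglyceride, phospholipid and cholesteryl ester synthesis or for oxidation. Fabp4 and Fabp5 are the carriers best known in macrophages, and Fabp3 is the carrier of heart and muscle. Acsl1 is known for adipose tissue, liver and inflammatory macrophages, Acsl3 for the endoplasmic reticulum and lipid droplets, Acsl4 for its preference for arachidonic acid, and Acsl5 for the endoplasmic reticulum and mitochondria.

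Of the 7 genes, Acsl3 alone had Ac-LDL arrays that did not overlap the control arrays (control over Ac-LDL 2.17-fold), and its adjusted p depended on whether the pairing of the replicates entered the fit. Fabp3, Fabp5, Acsl1, Acsl4 and Acsl5 were detected on all 8 arrays, with Ac-LDL and control arrays that overlapped. Fabp4 was detected on no array. Fabp3 and Fabp5 differed between the 2 slides, in opposite directions, by -0.99 and 0.88 on the log2 scale, whereas their treatment differences were -0.01 and -0.12. Without a block, limma called 0 of the 10 tested probes of the 7 genes and 7 of all 17122 tested probes, or 0.0409%, at a Benjamini-Hochberg adjusted p under 0.05. When the replicate number was added as a block it called 1 of the 10, the Acsl3 probe, beside 0.444% of all tested probes (76), and a block for the slide instead gave a call of the same probe, beside 0.321% (55). At an unadjusted p under 0.05, 1 of the 10 passed without a block, beside 5.2% of all tested probes (891). The median difference of the 10 probes, Ac-LDL minus control on the log2 scale, was 0.03, beside 0.00 over all tested probes.

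**Figure D1:**
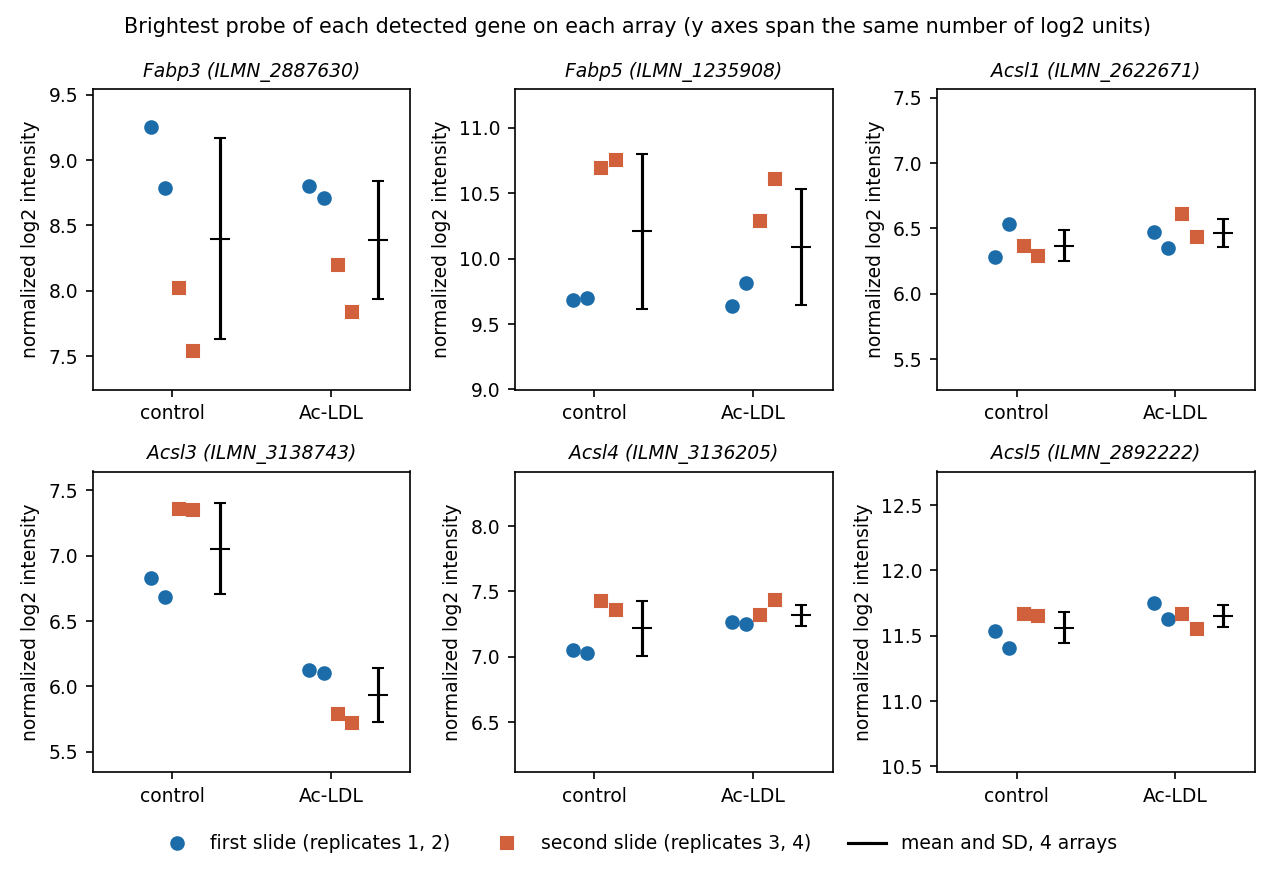
Normalized log2 intensity of the brightest tested probe of each of the 6 detected genes, by array, with control and Ac-LDL replicates 1 to 4 and the slide of each array marked, and bars for the group mean and SD (n = 4). Acsl3 is the panel in which the groups separate (control 6.69 to 7.35, Ac-LDL 5.72 to 6.12), whereas Fabp3 and Fabp5 separate by slide. Heights in different panels belong to different probes and are not comparable.

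The probes behind these values are 50-base oligonucleotides, and the ones that decide what can be said of a gene are shown here, 5′ to 3′. For Acsl3, 3 probes were placed on transcript variant 1, and the opening 30 bases of each are given to show that they are different stretches of it. The detected probe starts at transcript position 2642, the others at 234 and 3045.
ILMN_3138743 (detected): gggccgaggcaaactccattcctcatatta
ILMN_3061300 (not detected): cttactgtttactccttgaacttgctgtga
ILMN_1259366 (not detected): aagtcattgttgaacaaaagatttgttgct
Both Acsl4 probes that follow overlap by 41 bases, written in capitals, so that they read nearly the same stretch of RNA and are not independent.
ILMN_2690135: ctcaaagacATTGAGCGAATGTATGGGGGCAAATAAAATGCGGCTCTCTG
ILMN_1244872: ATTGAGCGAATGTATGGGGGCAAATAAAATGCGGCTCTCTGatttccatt
The Fabp5 probes overlap by 33 bases, with a shift of 17, and one was bright while the other was at background. The bright probe alone holds the first of the following stretches, and the undetected probe alone the second.
ILMN_1235908 (detected): gccccgtcatttaagct
ILMN_2685290 (not detected): aattgagactattccta

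Among the carriers, Fabp3 was read by 1 probe, ILMN_2887630, which the deposited annotation places on chromosome 4 (bases 129992430 to 129992479, plus strand) without naming a build. Its log2 intensity was 9.26, 8.78, 8.02 and 7.54 in control replicates 1 to 4. It was 8.80, 8.71, 8.20 and 7.84 in Ac-LDL replicates 1 to 4. All 4 arrays of the second slide were below all 4 of the first, and the treatment groups overlapped. The means were 8.40 ± 0.77 (SD, n = 4) for the control arrays and 8.39 ± 0.45 (SD, n = 4) for the Ac-LDL arrays, a difference of -0.01 with a 95% interval of -0.79 to 0.77 (limma, adjusted p = 1.00). A block for the replicate number narrowed the interval to -0.29 to 0.27. In 2 pairs the Ac-LDL array was higher and in 2 it was lower.

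Fabp4, the adipocyte-type carrier that macrophages also make, was read by 1 probe, ILMN_2615947, on chromosome 3. The detection p-value, set by where a probe falls among the array's negative controls, was at least 0.257 for it on every array, and its signal of 35.3 to 44.1 lay near the median of 38.0 to 40.8 of the undetected probes. It therefore has no measured level in either group, and no difference was tested. The probe holds 22% G and C. Of the 1476 probes of the array with at most 30% G and C, 13 (0.881%) passed the detection filter, compared with 38.2% of the probes with 42 to 50%, and the part of base composition in the missing Fabp4 signal was not tested.

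Fabp5, the epidermal-type carrier, had 1 bright probe, ILMN_1235908, placed on chromosome 3 (bases 10016494 to 10016543, plus strand). Its log2 intensity was 9.69, 9.70, 10.69 and 10.75 in control replicates 1 to 4. It was 9.64, 9.81, 10.29 and 10.61 in Ac-LDL replicates 1 to 4. The 4 arrays of the second slide were above all 4 of the first slide, and the Ac-LDL minus control difference was 0.03 on the first slide and -0.27 on the second, where both controls lay above both Ac-LDL arrays. The means were 10.21 ± 0.60 (SD, n = 4) and 10.09 ± 0.44 (SD, n = 4), a difference of -0.12 with a 95% interval of -0.78 to 0.54 (limma, adjusted p = 0.994), which became -0.35 to 0.10 once pairs were blocked. The overlapping probe ILMN_2685290 had a signal of 28.5 to 37.4 and detection p-values of 0.702 to 0.998, at background on all 8 arrays. It holds 32.0% G and C and the bright probe 40.0%. Of the 16 probes, 0 shared a run of 20 or more bases with a probe of another gene symbol.

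Fabp3 and Fabp5 were the genes, of the 6 tested, whose brightest probe passed the test for a difference between slides. With treatment kept in the fit, Fabp3 was lower on the second slide by 0.99 on the log2 scale, the difference second minus first being -0.99 ± 0.16 (SE), or 1.98-fold (limma, adjusted p = 0.00283). Fabp5 was higher there by 0.88 ± 0.10 (SE), or 1.84-fold (limma, adjusted p = 0.000929). Of the 10 tested probes 3 were called for the slide, beside 23.6% of all tested probes, so a slide difference was common on these arrays, and the third was the Acsl5 probe ILMN_2892227 at 0.30 (limma, adjusted p = 0.0453). The slide test was added after the arrays had been examined. Slide, culture and replicate number cannot be told apart here, since each slide held its own pair of numbers. All 8 tested macrophage markers had a higher mean on the second slide, with Emr1 higher by 1.19, Itgam by 1.01, Csf1r by 0.79 and Cd14 by 0.58 and called. Summed over the 8, the marker level ran from 35973 to 39378 on the first slide and from 41481 to 44466 on the second. Most of this sum was Lyz2 and Cd68 (mean log2 intensity 14.73 and 13.06 in control). Neither of them was called for the slide (limma, adjusted p = 0.208 and 0.670). Of 6 fibroblast markers 5 had a lower mean on the second slide, with Lum (-0.99) and Col1a1 (-0.41) called. The part of the cell make-up in the Fabp3 and Fabp5 differences was not tested, and in bulk RNA fewer cells of a type and less RNA per cell cannot be told apart.

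**Figure D2:**
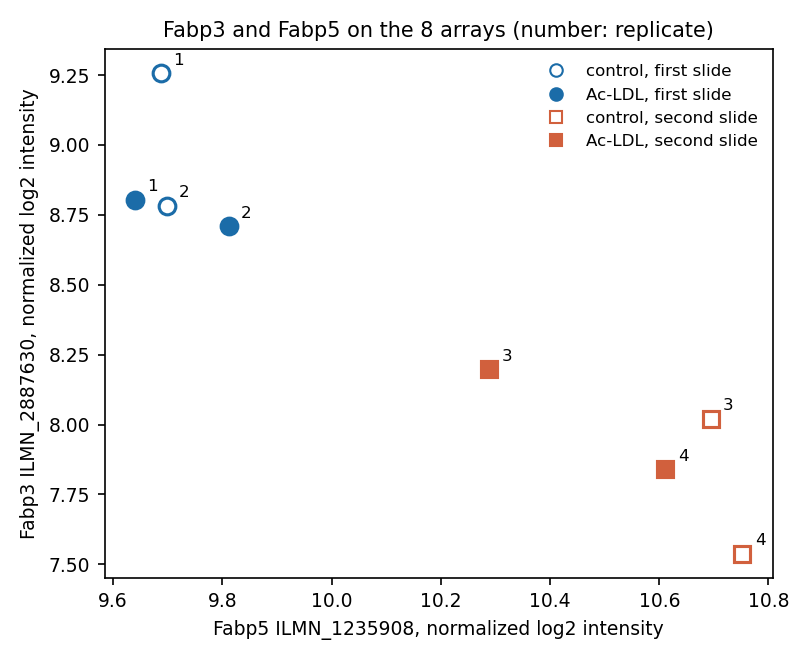
Normalized log2 intensity of Fabp5 (x axis) and of Fabp3 (y axis), 1 point for each of the 8 arrays, with treatment and slide marked. The 4 arrays of the second slide lie at lower Fabp3 (7.54 to 8.20) and higher Fabp5 (10.29 to 10.75) than the 4 of the first slide, with both treatments in each cluster.

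Among the synthetases, Acsl1 was read by 1 probe, ILMN_2622671, on chromosome 8 (bases 47620132 to 47620181, plus strand). Its log2 intensity was 6.28, 6.53, 6.36 and 6.29 in control replicates 1 to 4. It was 6.47, 6.35, 6.61 and 6.43 in Ac-LDL replicates 1 to 4. Control replicate 2 was above 3 of the 4 Ac-LDL arrays, so the groups overlapped. The difference was 0.10 with a 95% interval of -0.12 to 0.32 (limma, adjusted p = 0.985), and the Ac-LDL array was higher in 3 of 4 pairs.

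Acsl3, the synthetase of the endoplasmic reticulum and of growing lipid droplets, was lower in all 4 Ac-LDL arrays than in any control array. The log2 intensity of probe ILMN_3138743, placed on chromosome 1 (bases 78703059 to 78703108, plus strand), was 6.83, 6.69, 7.35 and 7.35 in control replicates 1 to 4. It was 6.12, 6.10, 5.79 and 5.72 in Ac-LDL replicates 1 to 4. The lowest control array thus stood above the highest Ac-LDL array, and groups that did not overlap, in either direction, were seen for 3.8% of all tested probes (650). The means were 7.05 ± 0.35 (SD, n = 4) and 5.93 ± 0.21 (SD, n = 4), a difference of -1.12 ± 0.17 (SE) with a 95% interval of -1.51 to -0.73, which put the control level 2.17-fold above the Ac-LDL level.

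The Acsl3 probe ranked 17th of 17122 by p, and its adjusted p was 0.0732 in limma without a block. Blocking on the replicate number gave 0.0445 and blocking on the slide gave 0.0323, so of these fits only the blocked ones made the call. The probe's own unadjusted p did not fall with the replicate block (limma, 7.38e-05 without it and 0.000178 with it). The adjusted p also depends on the other probes, of which more had a low p with that block (76 called against 7). The exact permutation test gave a two-sided p of 0.0286, the smallest that 4 against 4 arrays allow, and the Ac-LDL array was lower in 4 of 4 pairs, by -0.59 to -1.63. Alternatives in the processing gave an adjusted p of 0.0205 to 0.703. On the linear scale as deposited the signal was 153, 114, 199 and 208 in control and 85.4, 87.5, 83.6 and 75.7 in Ac-LDL. The median of the undetected probes was 38.0 to 40.8 on the same scale. Without background correction the Acsl3 difference was -0.88. Each array carried 30 to 46 beads for this probe.

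The size of the Acsl3 difference was -0.64 on the first slide and -1.60 on the second. The difference between slides was -0.95 (limma interaction term, adjusted p = 0.257), with 0 probes called for that term over the whole array and 1435 at an unadjusted p under 0.05, and the term was added after the arrays had been examined. On the second slide the control arrays were higher and the Ac-LDL arrays lower than on the first. Both other Acsl3 probes were at background on all 8 arrays, with signals of 35.8 to 42.4 for ILMN_3061300 and 32.2 to 42.0 for ILMN_1259366, so the difference rests on 1 of 3 probes. The array annotation marks the detected probe as type A, designed to read all isoforms, and ILMN_3061300 as type I, specific to an isoform, so a silent ILMN_3061300 need not refer to the transcripts that the detected probe reads. ILMN_1259366 holds 28.0% G and C, within the range in which few probes pass, and ILMN_3061300 holds 48.0%. The summed level of the macrophage markers, mostly Lyz2 and Cd68, overlapped between control (35973 to 44466) and Ac-LDL (37121 to 43232). One of the 8, Mertk, was higher in Ac-LDL by 0.56 and was called with the replicate block alone (limma, adjusted p = 0.0364, and 0.817 without it). The 6 fibroblast markers, mostly Dcn by level, summed to 10548 to 14517 in control and 11000 to 13506 in Ac-LDL. Of these 6, only Col1a2 did not overlap between groups, with a difference of -0.23 (limma, adjusted p = 0.887). The neutrophil markers S100a8 and Ltf, 2 tested of 5, summed to 583 to 639 in control and 685 to 749 in Ac-LDL, without overlap, and neither was called. Nearly all of that sum was S100a8 (mean log2 intensity 9.20 in control and 9.44 in Ac-LDL). Ltf was dim (4.67 and 4.87) and its groups overlapped. The part of such cells in the Acsl3 difference was not tested. Markers of adipocytes (8 genes), endothelial cells (7), T cells (4) and mast cells (4) had no tested probe.

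**Figure D3:**
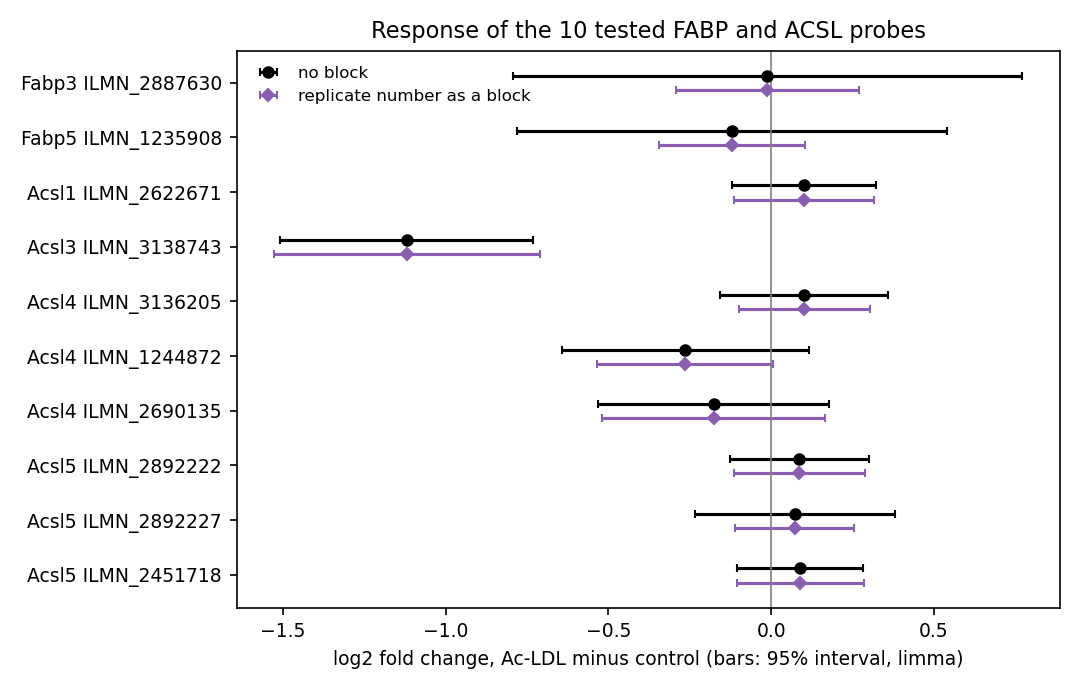
Difference between Ac-LDL and control (x axis, log2 scale) of the 10 tested probes, with 95% limma intervals as bars, without a block (circles) and with the replicate block (diamonds). The Acsl3 intervals, -1.51 to -0.73 and -1.53 to -0.71, lie wholly below 0, and those of the other 9 probes include 0.

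Acsl4, the synthetase that favours arachidonic acid, had 3 tested probes of 4, and they did not share a direction. ILMN_3136205 is annotated to transcript variant 3, but the array marks it as type A, designed to read all isoforms. Its log2 intensity was 7.05, 7.03, 7.43 and 7.36 in control replicates 1 to 4. It was 7.27, 7.25, 7.32 and 7.43 in Ac-LDL replicates 1 to 4. The groups overlapped, with a difference of 0.10 and a 95% interval of -0.16 to 0.36 (limma, adjusted p = 0.986). The overlapping probes gave -0.26 (ILMN_1244872, 95% interval -0.64 to 0.12) and -0.18 (ILMN_2690135, 95% interval -0.53 to 0.18). The control arrays of ILMN_1244872, annotated to transcript variant 2, ran from 6.29 to 7.11 and its Ac-LDL arrays from 6.45 to 6.71, inside that range. Whether these probes read different transcript forms was not tested. The fourth probe, ILMN_2696375, annotated to transcript variant 1 at position 466, was detected on 0 of 8 arrays.

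Acsl5, a synthetase of the endoplasmic reticulum and mitochondria, had 3 tested probes of 4 in the same direction, none called. The log2 intensity of the brightest, ILMN_2892222 on chromosome 19, was 11.54, 11.40, 11.66 and 11.65 in control replicates 1 to 4. It was 11.75, 11.62, 11.67 and 11.55 in Ac-LDL replicates 1 to 4. The groups overlapped, with a difference of 0.09 and a 95% interval of -0.13 to 0.30 (limma, adjusted p = 0.986). ILMN_2892227 gave 0.07 and ILMN_2451718 gave 0.09, and the interval of each included 0. The difference on the brightest probe was 0.22 on the first slide and -0.04 on the second. The probe ILMN_2459477, which carries no RefSeq transcript in the annotation, was detected on 0 of 8 arrays.

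The isoforms were then set against each other by their treatment differences, 1 brightest probe a gene, in 7 pairs within the families. Acsl3 differed from Acsl1, Acsl4 and Acsl5 in each of 4 array pairs. Acsl1 minus Acsl3 was 1.22 (95% interval 0.60 to 1.84), Acsl3 minus Acsl4 was -1.22 (-1.61 to -0.83) and Acsl3 minus Acsl5 was -1.21 (-1.56 to -0.85). Each had an exact two-sided permutation p of 0.0286, the smallest possible, and 0.0667 after Benjamini-Hochberg adjustment over the 7 pairs. Permuted within the replicate pairs, each gave an exact p of 0.125, the smallest that 4 pairs allow. The intervals are those of the spread between arrays, with 4 a group. Among the other 3 synthetases the differences were small on the brightest probes. Acsl1 minus Acsl4 was -0.00 (-0.37 to 0.37), Acsl1 minus Acsl5 was 0.01 (-0.29 to 0.32) and Acsl4 minus Acsl5 was 0.01 (-0.21 to 0.24). These intervals hold for the probes used and do not show that the isoforms behave alike. With the mean of all tested probes of a gene, Acsl1 minus Acsl4 was 0.21, Acsl1 minus Acsl5 was 0.02 and Acsl4 minus Acsl5 was -0.20. Fabp3 minus Fabp5 was 0.11 with an interval of -1.87 to 2.08. That interval leaves the pairs out of account, so its width holds the opposite slide differences of these 2 genes. Within the 4 array pairs the difference ran from -0.40 to 0.58, lower in 2 and higher in 2. Absolute levels were not ranked between genes, because each level belongs to its own probe.

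**Figure D4:**
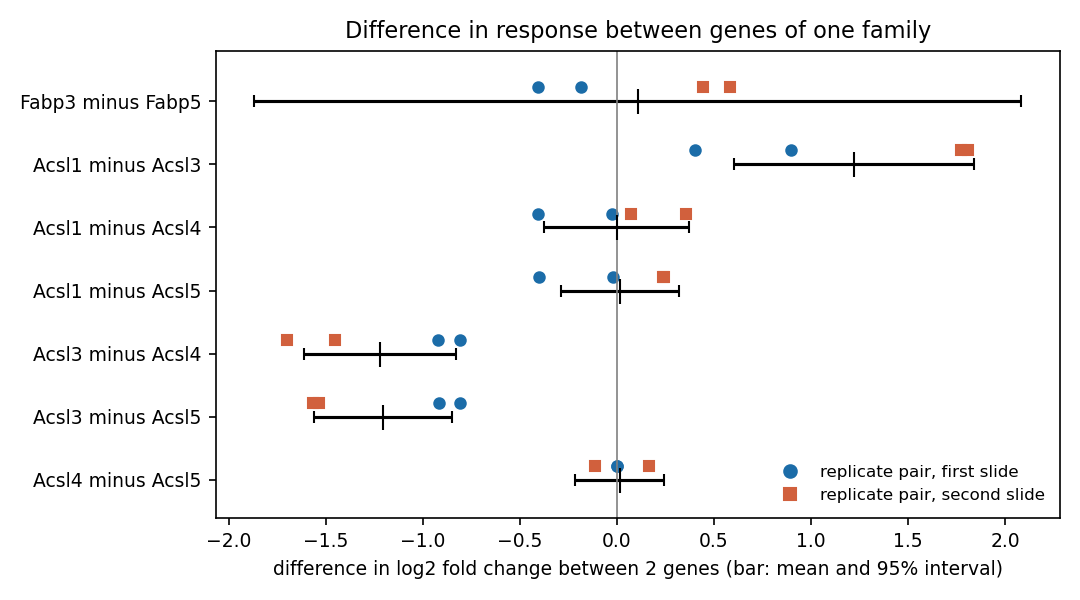
Difference between paired genes in their treatment effect (x axis, log2 scale) for the 7 pairs within the families, with the group difference and its 95% interval and the array pairs as points. The 3 pairs with Acsl3 lie away from 0 and the other 4 intervals include 0.

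The upstream sequence of Acsl3 is shown because its arrays separated by treatment, beside that of Acsl1, a synthetase whose arrays overlapped. The sequences are the 250 bases before a RefSeq transcription start in build GRCm38.p6, 5′ to 3′ on the gene's strand. RefSeq windows matched 5 of the 7 genes, with 6 windows, since Acsl1 has 2. Fabp4 and Fabp5 were not matched. Capitals mark matches to the CCAAT box and, in Acsl1, to the sterol regulatory element TCACNCCAC (SRE), the site to which sterol regulatory element binding proteins attach when cell sterol is low, searched on both strands.
Acsl3, chr1:78657575-78657824, plus strand: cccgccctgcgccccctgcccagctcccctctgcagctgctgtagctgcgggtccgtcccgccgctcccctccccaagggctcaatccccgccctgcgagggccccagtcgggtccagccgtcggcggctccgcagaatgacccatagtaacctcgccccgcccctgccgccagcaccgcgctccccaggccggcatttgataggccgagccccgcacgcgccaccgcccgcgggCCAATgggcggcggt
Acsl1, second start, chr8:46490716-46490965, plus strand: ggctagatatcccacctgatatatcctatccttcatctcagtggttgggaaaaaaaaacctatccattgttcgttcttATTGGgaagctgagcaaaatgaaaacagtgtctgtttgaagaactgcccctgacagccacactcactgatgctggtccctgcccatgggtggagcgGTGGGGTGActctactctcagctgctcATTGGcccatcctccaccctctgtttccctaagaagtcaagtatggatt
The Acsl3 window held a CCAAT box 15 to 11 bases before the start and 5 matches to the GC box GGGCGG, but no match to TCACNCCAC. The first Acsl1 window held 4 GC boxes and neither a CCAAT box nor TCACNCCAC. The second Acsl1 window held TCACNCCAC on the minus strand 76 to 68 bases before the start, between CCAAT boxes at 172 to 168 and 49 to 45. The Acsl5 window held a CCAAT box 117 to 113 bases before the start, the Acsl4 window overlapping GC boxes at 22 to 17 and 18 to 13, and the Fabp3 window none of these motifs. Over 32851 promoter windows of the same length, TCACNCCAC was found in 1.05%, CCAAT in 33.8% and GGGCGG in 32.7%. A match is a string of letters and was not tested as a binding site, and the absence of one says nothing about the factor.

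The wider pathway was described with 65 genes in 6 lists, of which 60 were on the array and 35 had a tested probe. None of the 35 was called in any of the 3 limma fits or in the methods' t-test after adjustment, and 5 had an unadjusted p under 0.05 without a block, beside 5.2% of all tested probes. The mean was higher in Ac-LDL for 20 and lower for 15, with a median difference of 0.03. The arrays of 3 of the 35 did not overlap between groups, beside 3.8% of all tested probes. Among uptake proteins, 5 tested of 8, these were the fatty acid transporters Slc27a1 at 0.39 (95% interval 0.14 to 0.64) and Slc27a6 at -0.45 (-0.67 to -0.22), with adjusted p in limma of 0.685 and 0.357. Cd36, the scavenger receptor that also takes up fatty acids, gave 0.38 with an interval of -0.32 to 1.08.

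Of the other fatty acid binding proteins, 1 of 7 was tested, the ileal bile acid carrier Fabp6, at -0.18. Of the other acyl-CoA synthetases, 5 of 13 were tested. The lowest was Acss2, which makes acetyl-CoA from acetate, at -0.56 (95% interval -0.96 to -0.17, limma adjusted p = 0.776). The highest was Acsf3, the mitochondrial malonyl-CoA synthetase, at 0.29 (95% interval 0.03 to 0.55, limma adjusted p = 0.887), the last of the 3 without overlap. Of the acyl-CoA binding proteins, 6 of 7 were tested, from the carrier Dbi at -0.24 to the sterol carrier Scp2 at 0.27, and the 3 Dbi probes ran from -0.24 to 0.07.

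Thioesterases, which undo the ACSL reaction, had 9 of 15 genes tested, from Acot13 (listed on the array as Them2) at -0.35 to Acot1 at 0.22. The enzymes that use acyl-CoA for lipid synthesis or oxidation had 9 of 15 tested, from Cpt1c, the brain carnitine palmitoyltransferase, at -0.19 to the lysophospholipid acyltransferase Lpcat2 at 0.32. Beside these, the Acsl3 difference of -1.12 was larger in size than that of any of the 35 pathway genes, the nearest being Acss2.

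**Figure D5:**
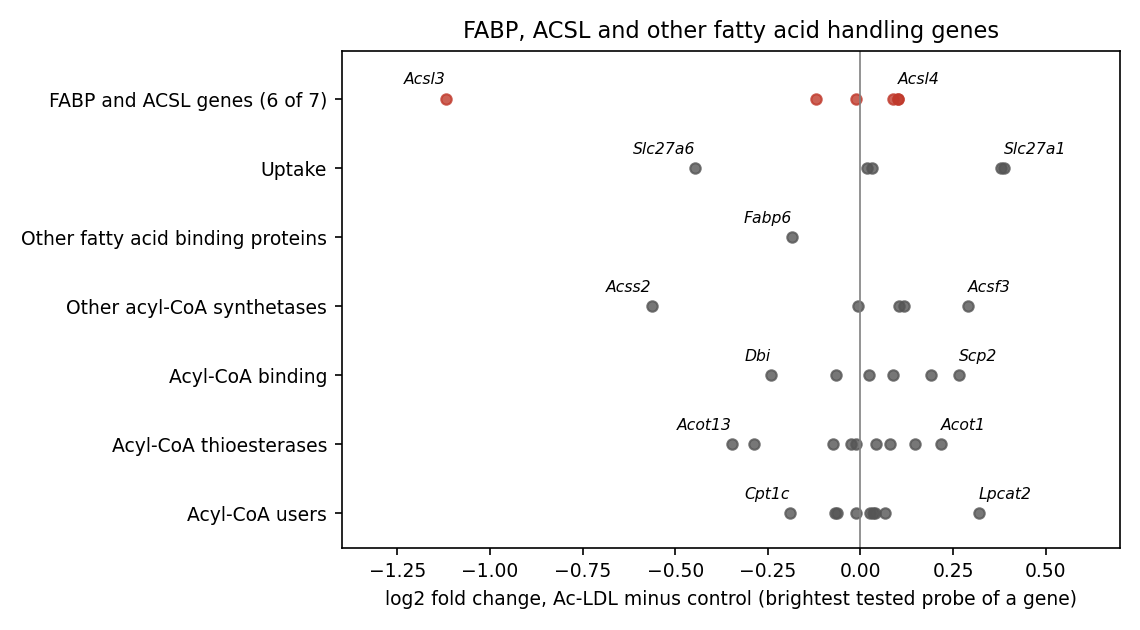
Difference between Ac-LDL and control (x axis, log2 scale) of the brightest tested probe of each gene, 1 point a gene, for the 6 detected FABP and ACSL genes and the 6 pathway lists. Acsl3 at -1.12 lies beyond the lowest pathway gene, Acss2 at -0.56, and the 35 pathway genes run from there to 0.39.

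For each gene, the probes whose values ran most like it over the 8 arrays were found by Pearson's r across all tested probes of other genes, as a description, since the arrays share treatment and slide. Near to Acsl3 were Atg9b, an autophagy gene (r = 0.988), and Stard4, a sterol transfer protein (r = 0.987). Their differences between Ac-LDL and control were -1.34 and -1.39 on the log2 scale. Nearest to Fabp3 were Gga2, Cdk5rap1 and Prkcdbp (r = 0.988 to 0.989), whose treatment differences lay within 0.04 of 0 and which were lower on the second slide. Nearest to Fabp5 were Pldn, Cox7a2 and Kpna3 (r = 0.991 to 0.993), all higher on the second slide. Near to Acsl1 were 1500041B16Rik (r = 0.960) and Rnf111 (r = 0.934). Nearest to Acsl4 were Atad1, LOC100047863 and Tmem24 (r = 0.988 to 0.991), and to Acsl5 were Josd3, Pomgnt1 and Bclaf1 (r = 0.941 to 0.954).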

How the data were processed

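RNA of 8 cultures was hybridised to Illumina Mouse WG-6 v2.0 bead arrays. For each array and probe the authors deposited the intensity (mean over beads, linear scale, neither background-subtracted nor normalized), a detection p-value, the bead standard error of the signal and the number of beads. The authors' GeneSpring GX values were not used. BeadStudio is named in the submitters' processing notes, and the genome build of the probe coordinates is not given in the sources used here. In R 4.3.3 with limma 3.58.1, intensities were background-corrected (normexp with negative controls inferred from detection p-values, offset 16), quantile normalized and log2 transformed. A probe was tested if 4 or more of the 8 arrays gave it a detection p-value no higher than 0.05 (17122 probes). Ac-LDL (4 arrays) was set against control (4 arrays) in limma, with Benjamini-Hochberg adjustment over all tested probes at 0.05. Between 16679 and 17439 probes were detected per array (36.8% to 38.5%), and the number of arrays limits the precision.

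Same-numbered control and Ac-LDL arrays deviated together from their group means (r = 0.579, 0.479, 0.468 and 0.629 for replicates 1 to 4). Such arrays also shared a slide, and differently numbered arrays of one slide were not compared. These values therefore cannot tell a pairing by number from a shared slide. The numbers were taken as pairs, and the fit with the replicate number as a block is given where it changes a call. A gene with several tested probes is represented by the brightest. The genes named were all 7 FABP and ACSL genes, any pathway gene called without a block or with the replicate block, the tested gene with the largest rise and the largest fall in each pathway list, and the 3 symbols best correlated with each of the tested genes, some of which are not reported here. Cd36 and the marker genes were named after their values were seen. Alternatives changed the background correction, normalization, filter, block, prior, test, choice of probe and arrays. The slide difference, the interaction of treatment with slide, the search for shared probe bases and the comparison of probe base composition were added after the values were seen. The genes and lists were chosen with earlier results of these data known. Promoters are from RefSeq (GRCm38.p6). The scripts were tested on simulated data.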

Additional observations from a re-analysis of the deposited data

Results flagged for a closer look

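Of 90 sets of 4 arrays (a probe of the FABP, ACSL or pathway genes in 1 treatment group), 4 held an array set apart from the other 3, where chance alone gives 1 in 20, or 4.5. None was a probe of the 7 FABP and ACSL genes. On the log2 scale, Acss2 was 6.37 in Ac-LDL replicate 1, against 6.15 to 6.18 in the other Ac-LDL arrays. Acsf3 was 5.66 in control replicate 4, against 5.84 to 5.85 in the other controls. Acbd3 was 10.28 in control replicate 1, against 10.06 to 10.09, and Acbd5 was 5.004 in control replicate 3, against 4.71 to 4.75.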

How the results depend on the processing

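The number of probes called over the array, 7 in the limma fit without a block, was 14 without background correction, 30 without normalization, 0 without the detection filter, 76 with the replicate block, 55 with the slide block, 16 with a trended robust prior, 0 by the methods' t-test and 0 to 15 with arrays left out (15 without control replicate 2). Without a block 891 probes had an unadjusted p under 0.05. Without normalization the median of all probes moved to -0.12, and 1 probe was called higher and 29 lower, against 1 and 6. Acsl3 was lower in Ac-LDL under all 26 alternatives. It passed the threshold at -1.25 without normalization (adjusted p = 0.0205), at -1.12 with the replicate or slide block, and at -1.24 without control replicate 2 (adjusted p = 0.0473). It was -0.88 without background correction and -0.81 with an offset of 50 (limma, adjusted p = 0.0728 and 0.0926), so its size depended on the background step. It was -0.64 within the first slide and -1.60 within the second, and -1.30 to -0.95 with arrays left out. The other genes were called under none. With arrays left out Fabp3 ran from -0.30 to 0.27 and Fabp5 from -0.29 to 0.061. Without normalization Acsl1 was -0.020, Acsl4 -0.034 and Acsl5 -0.075, which relative to the shifted median are 0.10, 0.09 and 0.05. On the deposited signals Acsl1 was -0.013, Acsl5 -0.089, Acsl4 -0.050, Fabp3 -0.26 and Fabp5 -0.33, none with a test. Within the first and second slide Acsl5 was 0.22 and -0.045, Fabp3 -0.26 and 0.24, Fabp5 0.03 and -0.27, and Acsl4 0.22 and -0.018. As a mean of its probes Acsl4 was -0.11.

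Of the pairs of isoforms, Acsl1 minus Acsl3 was 0.65 and 1.79 within the first and second slide, Acsl3 minus Acsl4 -0.87 and -1.58, Acsl3 minus Acsl5 -0.86 and -1.55, and Acsl1 minus Acsl5 -0.21 and 0.24. Acsl1 minus Acsl4 was 0.014 without normalization and 0.21 over all probes. Acsl1 minus Acsl5 was -0.0079 without background correction and -0.014 with an offset of 50, and Acsl4 minus Acsl5 was -0.0040 with that offset and -0.20 over all probes. With arrays left out, Fabp3 minus Fabp5 ran from -0.36 to 0.57, Acsl1 minus Acsl4 from -0.12 to 0.13, Acsl1 minus Acsl5 from -0.062 to 0.15 and Acsl4 minus Acsl5 from -0.055 to 0.066. Where a value moved, the cause was not tested. The pathway genes had 0 calls under all 22 alternatives, and the replicate block changed no other call among the 7 genes or the pathway lists, and 1 among the marker lists, Mertk. Only probes that passed the detection filter were given a difference, which leaves out Fabp4 and 1 to 2 probes each of Fabp5, Acsl3, Acsl4 and Acsl5. Some that passed were dim, such as the Acsl5 probe ILMN_2451718. Its signal was 59.0 to 72.0, against a median of 38.0 to 40.8 for the undetected probes.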
